A study of Mus musculus with 12 samples.

Results

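The genes described here encode death receptors, caspases and inhibitor of apoptosis proteins (IAPs): Tnfrsf10b, Fas, Fadd, Casp8, Cflar, Apaf1, Casp9, Birc2 and Birc3. They were taken by gene symbol, and these 9 genes were all found among the 14852 genes of the deposited FPKM table, while 14 of the 19049 deposited ac4C peaks were assigned to them. The samples were ID8 cells, a mouse line derived from ovarian surface epithelium, either treated with cisplatin, a platinum drug that crosslinks DNA, or left as control. From the same fragmented RNA came an input library and an immunoprecipitated (IP) library pulled down through N4-acetylcytidine (ac4C), an acetylated base that NAT10 places in RNA. This gave 12 libraries in 4 groups of 3: cisplatin input, cisplatin IP, control input and control IP. No group carried a further genotype or agent in the labels, and neither dose nor duration of cisplatin is given in the sources used here.

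Apoptosis starts along a pair of routes that end in the same downstream caspases. In the extrinsic route a ligand clusters a death receptor such as Fas or the TRAIL receptor encoded by Tnfrsf10b, the adaptor FADD binds its death domain, and procaspase-8 is activated on FADD unless its catalytically inactive relative c-FLIP (Cflar) takes its place. In the intrinsic route cytochrome c released from mitochondria assembles APAF1 into the apoptosome, which activates caspase-9. The cellular IAPs c-IAP1 (Birc2) and c-IAP2 (Birc3) are ubiquitin ligases that keep TNF receptor complexes in a survival mode and, together with TRAF2 and TRAF3, keep the kinase NIK (Map3k14) low. DNA damage by platinum drugs is a classical trigger of both routes, and Fas, Tnfrsf10b and Apaf1 are known p53 targets.

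Gene levels are FPKM, fragments scaled by gene length and library size. Being per length, they can be compared between genes as far as the gene lengths used by the authors hold. The input libraries held 21752961 to 29687163 fragments for cisplatin and 20134902 to 21336306 for control, as recovered from the steps of the FPKM values. A single library had between 79 fragments (Tnfrsf10b, control replicate 2) and 3710 fragments (Cflar, cisplatin replicate 2) of one of the 9 genes. The labels number the replicates without calling them separate cultures, so every p-value rests on a library-to-library spread that may be technical. The labelled cell type was checked against marker genes: 7 of 11 epithelial and mesothelial markers, among them Krt8, Krt18, Krt19, Wt1 and Msln, had at least 1 FPKM in every library, and Epcam and Pax8 were not analysed here. Their summed level was 2923 to 3262 FPKM in cisplatin libraries and 2068 to 2101 FPKM in control libraries, a sum made up mostly of Krt8, Krt18 and Krt19, which were higher after cisplatin. The other markers of that list did not share one direction. Wt1, Upk3b and Muc16 were lower, with 12.4 ± 0.598 FPKM in cisplatin and 45.1 ± 1.08 FPKM in control libraries for Wt1, 61.1 ± 4.76 and 81.6 ± 1.78 FPKM for Upk3b, and 0.233 ± 0.0405 and 1.21 ± 0.0729 FPKM for Muc16. Msln was higher, with 151 ± 5.35 FPKM in cisplatin and 136 ± 2.33 FPKM in control libraries. Cdh1 did not pass, with 2.23 ± 0.268 and 2.47 ± 0.288 FPKM. Krt7, on the same list, was hardly found, with 0.0105 ± 0.00925 FPKM in cisplatin and 0.178 ± 0.138 FPKM in control libraries. Of 8 leukocyte, 5 endothelial and 7 fibroblast markers, 1, 1 and 4 were measured, with summed levels of 7.50 to 9.72, 2.55 to 2.81 and 17.1 to 18.7 FPKM in cisplatin libraries, against 2.22 to 2.57, 0.723 to 0.931 and 23.7 to 24.6 FPKM in control libraries, and their part in the results was not tested. In bulk RNA a change in the mix of cells and a change of RNA per cell cannot be told apart.

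After cisplatin the TRAIL receptor gene Tnfrsf10b, the adaptor gene Fadd and the apoptosome gene Apaf1 were higher by 5.98-fold, 2.69-fold and 2.15-fold, and Fas by 1.26-fold. The cellular IAP genes Birc2 and Birc3 were lower, at 0.520 and 0.519 times the control level. Casp8, Cflar and Casp9 differed from control by at most 1.28-fold. In all, 4 of the 9 genes rose and 4 fell at a limma adjusted p under 0.05, and Cflar did not pass. Such calls were common: 81.3% of the 11449 genes tested passed, 40.1% higher and 41.1% lower, so the number of calls among these genes is near the background. With libraries rescaled to a common FPKM sum, 4085 genes were higher and 5281 lower, so that 43.6% of the calls were higher in place of 49.4%, and 4 of the 9 genes were higher and 5 lower. A call with at least a 2-fold difference in mean FPKM was made for 3 of the 9 genes, against 32.2% of all tested genes. The libraries of both treatments did not overlap in 8 of the 9 genes, against 84.2% of all tested genes. Tnfrsf10b is counted above among the genes that rose, differed at least 2-fold and did not overlap. It reached 1 FPKM in the cisplatin libraries only, so it had to be higher there, without overlap, to be tested. The median log2 change was -0.03 over the 9 genes and -0.003 over all genes tested.

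**Figure D1:**
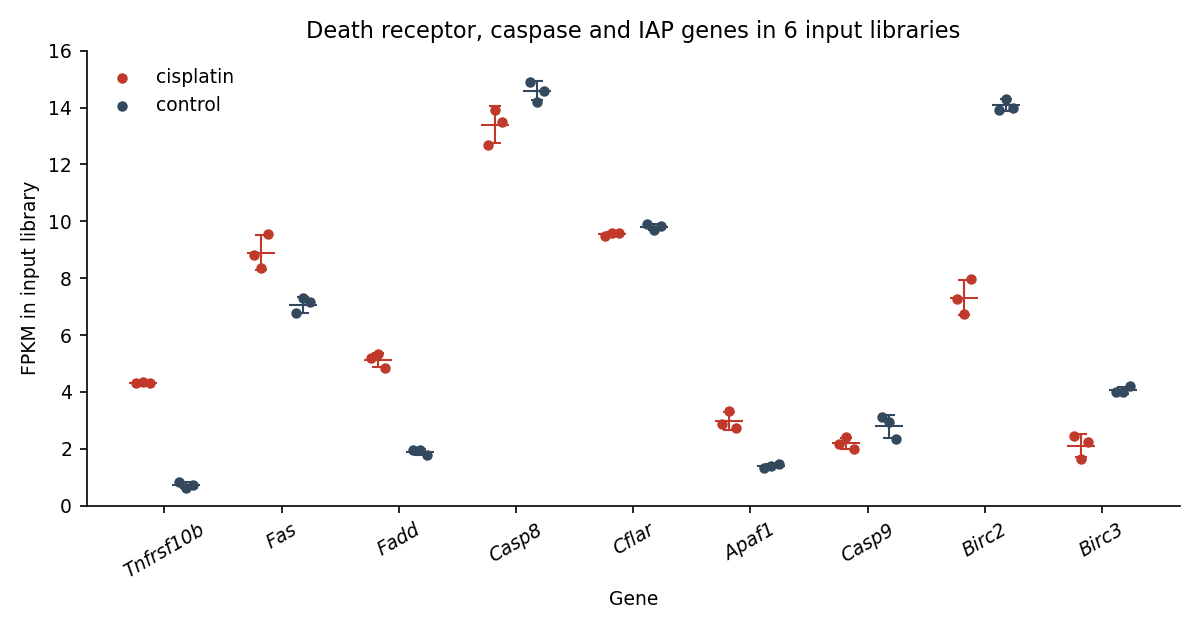
FPKM (vertical axis) of the 9 genes in the 3 cisplatin (red, left) and 3 control (dark, right) input libraries; points are libraries, horizontal marks are means and bars are SD. Tnfrsf10b, Fadd and Apaf1 sit wholly above control, Birc2 and Birc3 wholly below, and only the Casp9 points of both treatments overlap.

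Among the receptors, Tnfrsf10b (ENSMUSG00000022074, chr14:69767472-69784411 on GRCm38.p6, the assembly behind mm10) encodes the only TRAIL death receptor of the mouse. It measured 4.31, 4.36 and 4.33 FPKM in cisplatin libraries and 0.820, 0.633 and 0.720 FPKM in control libraries. The cisplatin libraries lay close together, far above all control libraries. The means were 4.33 ± 0.0225 FPKM in cisplatin and 0.725 ± 0.0937 FPKM in control libraries (SD, n = 3 each, as for all levels that follow). The limma log2 change of FPKM + 1 was 1.63 (SE 0.062, adjusted p = 5.02e-07). This scale understates changes of low genes, and voom on the recovered fragments gave 2.58. Tnfrsf10b reached the 1 FPKM needed for the test in the 3 cisplatin libraries only, so its passing into the test already required it to be higher there. The other 8 genes reached 1 FPKM in all 6 libraries.

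Fas (ENSMUSG00000024778, chr19:34290647-34327775), the receptor for Fas ligand, had 8.80, 8.35 and 9.54 FPKM in cisplatin libraries and 6.76, 7.30 and 7.16 FPKM in control libraries. The lowest cisplatin library was above the highest control library, with a log2 change of 0.29 (SE 0.059, limma adjusted p = 0.00257). Fas thus began from a higher level than Tnfrsf10b and moved by less. Fadd (ENSMUSG00000031077, chr7:144578323-144582441), the adaptor both receptors use, had 5.20, 5.32 and 4.83 FPKM in cisplatin libraries and 1.97, 1.95 and 1.78 FPKM in control libraries. Its groups were widely apart, with a log2 change of 1.08 (SE 0.061, limma adjusted p = 2.66e-06).

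Casp8 (ENSMUSG00000026029, chr1:58795233-58847503) encodes the initiator caspase recruited by FADD, and had 12.7, 13.9 and 13.5 FPKM in cisplatin libraries and 14.9, 14.2 and 14.6 FPKM in control libraries. The groups did not overlap, but the nearest libraries were 13.9 and 14.2 FPKM. The log2 change was -0.12 (SE 0.046, 95% interval -0.22 to -0.01, limma adjusted p = 0.0487), and the call was lost without any one of cisplatin replicates 1 and 3 and control replicates 1, 2 and 3, where the highest adjusted p was 0.143. In the authors' deposited table, where 77.8% of all 14852 genes passed 0.05, the adjusted p of Casp8 was 0.153. Cflar (ENSMUSG00000026031, chr1:58711311-58758884), which encodes c-FLIP, the regulator of caspase-8, had 9.47, 9.59 and 9.58 FPKM in cisplatin libraries and 9.90, 9.69 and 9.82 FPKM in control libraries. Its log2 change of -0.03 (SE 0.038, limma adjusted p = 0.422) had a 95% interval of -0.13 to 0.06, which leaves room for small changes only. With libraries rescaled to a common FPKM sum, Cflar passed as lower (log2 change -0.13, adjusted p = 0.0187), a scaling under which the median of all genes moved to -0.087.

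In the intrinsic route, Apaf1 (ENSMUSG00000019979, chr10:90989311-91082743), the scaffold of the apoptosome, had 2.88, 3.34 and 2.72 FPKM in cisplatin libraries and 1.32, 1.39 and 1.46 FPKM in control libraries. Every cisplatin library held more than any control library, with a log2 change of 0.73 (SE 0.074, limma adjusted p = 5.57e-05). Casp9 (ENSMUSG00000028914, chr4:141793612-141815978), the initiator caspase that APAF1 activates, had 2.17, 2.40 and 2.00 FPKM in cisplatin libraries and 3.10, 2.95 and 2.34 FPKM in control libraries. Control replicate 3 fell within the cisplatin range. Casp9 passed as lower (log2 change -0.25, SE 0.094, limma adjusted p = 0.0426), but not without any one of cisplatin replicates 1 and 3 and control replicates 1 and 2, nor without the filter on low genes (adjusted p = 0.0524) or with quantile normalization (log2 change -0.15, adjusted p = 0.172).

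Birc2 (ENSMUSG00000057367, chr9:7818226-7837131), the c-IAP1 gene, had 7.26, 6.73 and 7.97 FPKM in cisplatin libraries and 13.9, 14.3 and 14.0 FPKM in control libraries, with a log2 change of -0.86 (SE 0.060, limma adjusted p = 7.70e-06). Birc3 (ENSMUSG00000032000, chr9:7847468-7873205), the c-IAP2 gene, had 2.45, 1.65 and 2.23 FPKM in cisplatin libraries and 3.99, 3.99 and 4.21 FPKM in control libraries, with a log2 change of -0.71 (SE 0.10, limma adjusted p = 3.72e-04). In both genes the groups were clearly apart and cisplatin replicate 2, the deepest library, was the lowest of its group. Birc2 and Birc3 are neighbours on chromosome 9 with 10336 bp and no protein-coding RefSeq gene between them. Their promoters are shown because these neighbours fell together, and that of Fadd as one of a gene that rose; each runs from 250 bases before to 50 bases after a transcription start, 5′ to 3′ on the strand of the gene, from RefSeq on GRCm38.p6, and capitals mark motif matches.
Birc2, chr9:7837008-7837307, minus strand: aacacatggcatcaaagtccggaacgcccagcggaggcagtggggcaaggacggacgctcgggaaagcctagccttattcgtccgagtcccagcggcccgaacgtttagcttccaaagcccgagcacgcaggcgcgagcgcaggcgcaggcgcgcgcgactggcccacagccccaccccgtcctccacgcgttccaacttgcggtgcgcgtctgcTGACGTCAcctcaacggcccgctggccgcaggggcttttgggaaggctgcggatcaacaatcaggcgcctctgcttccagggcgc
Birc3, chr9:7873121-7873420, minus strand: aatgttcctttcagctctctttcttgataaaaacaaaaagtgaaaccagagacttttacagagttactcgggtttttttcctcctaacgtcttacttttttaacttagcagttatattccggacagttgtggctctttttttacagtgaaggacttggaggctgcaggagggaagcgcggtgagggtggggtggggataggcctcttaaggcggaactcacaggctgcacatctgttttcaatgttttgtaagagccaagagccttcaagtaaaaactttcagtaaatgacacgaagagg
Fadd, chr7:144582392-144582691, minus strand: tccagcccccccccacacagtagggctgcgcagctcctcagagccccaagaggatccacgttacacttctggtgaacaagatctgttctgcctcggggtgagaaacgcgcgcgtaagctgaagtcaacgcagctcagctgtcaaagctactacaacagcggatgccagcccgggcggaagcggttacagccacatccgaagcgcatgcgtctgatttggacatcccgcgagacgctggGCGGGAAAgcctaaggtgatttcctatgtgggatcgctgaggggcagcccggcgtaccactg
Of the 9 genes 8 had a promoter in the RefSeq table, and Tnfrsf10b had none. The motifs searched on both strands were the cAMP response element TGACGTCA, the AP-1 site TGANTCA, the E2F site TTTCCCGC, the NF-kB consensus motif and the p53 half-site. The Birc2 promoter shown held TGACGTCA starting 35 bases before the start, a motif found in 1.79% of 32851 mouse promoters. The Fadd promoter held TTTCCCGC on the opposite strand 12 bases before the start, found in 1.07% of promoters. Fas held TGANTCA (7.81% of promoters), and the NF-kB motif (8.46%) was in none of the 8. A second Birc2 start held a single match to the p53 half-site (8.36%), the letters AGGCTAGTCT, 10 bases after the start. A half-site is only a part of a full p53 site. The capitals do not overlap between motifs. The Birc2 and Birc3 windows differed in base composition, with 67.0% and 43.0% G and C, against a median of 52.7% over all promoters. A match is a run of letters, and binding was not measured.

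The genes that flank the pair did not share one direction. Tmem123 on one side had 7.32 ± 0.945 FPKM in cisplatin and 6.10 ± 0.509 FPKM in control libraries (limma adjusted p = 0.0603). Yap1 on the other side, the transcriptional coactivator of the Hippo pathway, was lower, with 7.33 ± 0.168 FPKM in cisplatin and 11.2 ± 0.158 FPKM in control libraries (log2 change -0.55, adjusted p = 1.10e-05). Cflar and Casp8 are neighbours too, on chromosome 1, with 36348 bp and no protein-coding RefSeq gene between them. Around this pair Fam126b and Trak2 were higher (log2 changes 1.03 and 0.37) while Ndufb3 and Stradb were lower (-1.11 and -0.63). Fam126b had 0.669 ± 0.131 FPKM in control libraries and Stradb had 0.637 ± 0.0836 FPKM in cisplatin libraries. Both reached 1 FPKM in the other treatment only and so had to differ to be tested. These flanking genes were taken by position, as the 3 nearest RefSeq protein-coding genes on each side, after the values of the pairs were known. Cep126, the farthest on the Yap1 side, rose to 3.87 ± 0.349 FPKM in cisplatin libraries and was listed at 0 in all control libraries, and the other 5 were not analysed here.

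The order of the 9 genes by level differed between the treatments. In cisplatin libraries it ran Casp8 (13.4 ± 0.641 FPKM), Cflar (9.55 ± 0.0679), Fas (8.90 ± 0.604), Birc2 (7.32 ± 0.623), Fadd (5.12 ± 0.253), Tnfrsf10b (4.33 ± 0.0225), Apaf1 (2.98 ± 0.323), Casp9 (2.19 ± 0.202) and Birc3 (2.11 ± 0.413). In that order Cflar and Fas, and Casp9 and Birc3, overlapped over their 3 libraries, and the other neighbours did not. In control libraries it ran Casp8 (14.6 ± 0.337 FPKM), Birc2 (14.1 ± 0.211), Cflar (9.80 ± 0.103), Fas (7.07 ± 0.280), Birc3 (4.06 ± 0.127), Casp9 (2.80 ± 0.404), Fadd (1.90 ± 0.108), Apaf1 (1.39 ± 0.0697) and Tnfrsf10b (0.725 ± 0.0937), where only Casp8 and Birc2 overlapped. Casp8 held the top place in both. Against all tested genes, Tnfrsf10b lay at the 39.2 percentile of FPKM in cisplatin and the 5.8 percentile in control libraries, Fadd at 43.7 and 17.8, and Birc2 at 53.5 and 71.4.

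Ratios of genes that act at the same step were taken within each library, which makes them independent of library scaling. Apaf1 over Casp9 was 1.33, 1.39 and 1.36 in cisplatin libraries and 0.425, 0.472 and 0.624 in control libraries, so Apaf1 exceeded Casp9 in every cisplatin library and in no control library. Tnfrsf10b over Fas was 0.490, 0.522 and 0.454 in cisplatin libraries and 0.121, 0.0867 and 0.101 in control libraries, a 4.79-fold difference, with Fas at the higher FPKM in all 6. Cflar over Casp8 was 0.746, 0.688 and 0.708 in cisplatin libraries and 0.665, 0.682 and 0.670 in control libraries. Its groups did not overlap, though the means of 0.714 ± 0.0297 and 0.672 ± 0.00856 differed by 1.06-fold only. Birc3 over Birc2 was 0.337, 0.245 and 0.279 in cisplatin libraries and 0.286, 0.278 and 0.301 in control libraries, with overlapping groups. The exact two-sided permutation test on log2 ratios gave p = 0.1 for the first 3 ratios, the smallest that 3 against 3 allows, and 0.900 for Birc3 over Birc2 (0.133 and 0.900 after Benjamini-Hochberg adjustment over 4 ratios), so none could pass 0.05.

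**Figure D2:**
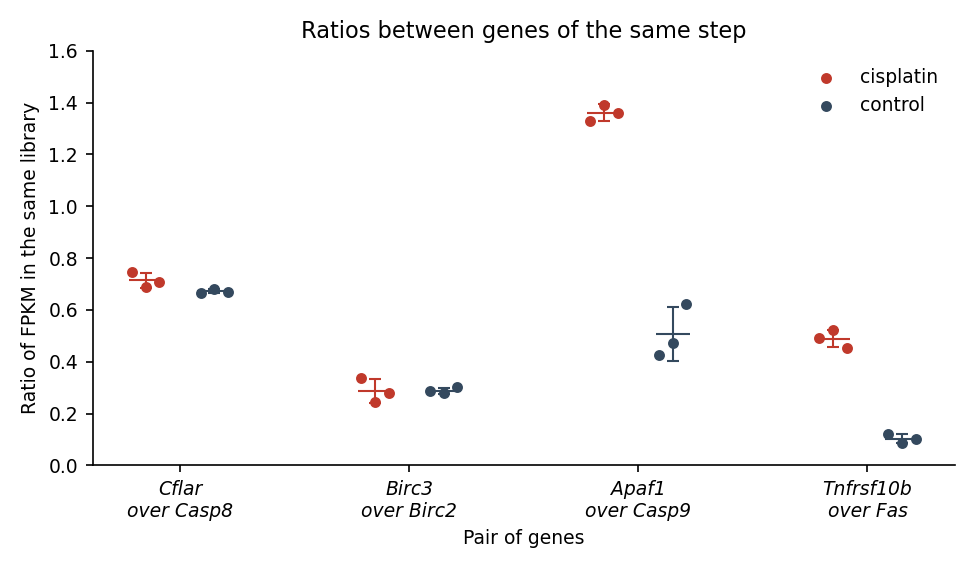
Ratio of FPKM between genes of the same step (vertical axis) in each of 3 cisplatin (red, left) and 3 control (dark, right) input libraries; points are libraries, marks means and bars SD. Apaf1 over Casp9 averages 1.36 in cisplatin against 0.507 in control libraries, while Birc3 over Birc2 averages 0.287 against 0.288.

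The rest of the pathway was followed with 6 lists of 76 genes, of which 58 were in the table and 54 were tested. Of these, 27 rose, 14 fell and 13 did not pass, with a median log2 change of 0.15, where 40.1% of all tested genes rose and 41.1% fell. Of the 41 genes called, 9 reached 1 FPKM in the libraries of one treatment only and so had to differ to be tested: Tnfsf12, Ripk3 and Endog among those that rose, and Tnfrsf25, Cradd, Rnf31, Casp12, Dffb and Xkr8 among those that fell. Beside these, 24 rose and 8 fell, and with a common FPKM sum 26 of the 54 rose and 18 fell. Of 8 death ligand genes 1 was measured, Tnfsf12 (TWEAK), which rose, and the others, among them those of TRAIL, Fas ligand and TNF, were not analysed here. Tnfsf12 had 2.61, 3.09 and 1.95 FPKM in cisplatin libraries and was listed at 0 in the 3 control libraries, at least 88.5-fold higher against a floor of 3 fragments over the 3 control libraries. Tnfsf12 overlaps a readthrough transcript with its neighbour Tnfsf13, and how the authors' counting split such fragments is not known here. Its receptor gene Tnfrsf12a (Fn14) also rose, with 113 ± 5.34 FPKM in cisplatin and 43.2 ± 1.06 FPKM in control libraries (limma log2 change 1.37, adjusted p = 2.27e-07). Of 9 other TNF and death-domain receptors 5 rose and 2 fell. Eda2r, the ectodysplasin A2 receptor and a p53 target, had 6.07 ± 0.195 FPKM in cisplatin and 2.82 ± 0.0824 FPKM in control libraries, and Tnfrsf21 (DR6) had 10.8 ± 0.176 and 6.74 ± 0.0525 FPKM. The genes that fell were Tnfrsf1a, the main TNF receptor gene, with 28.1 ± 1.15 FPKM in cisplatin and 38.7 ± 0.459 FPKM in control libraries, and Tnfrsf25, both named after their values were seen.

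**Figure D3:**
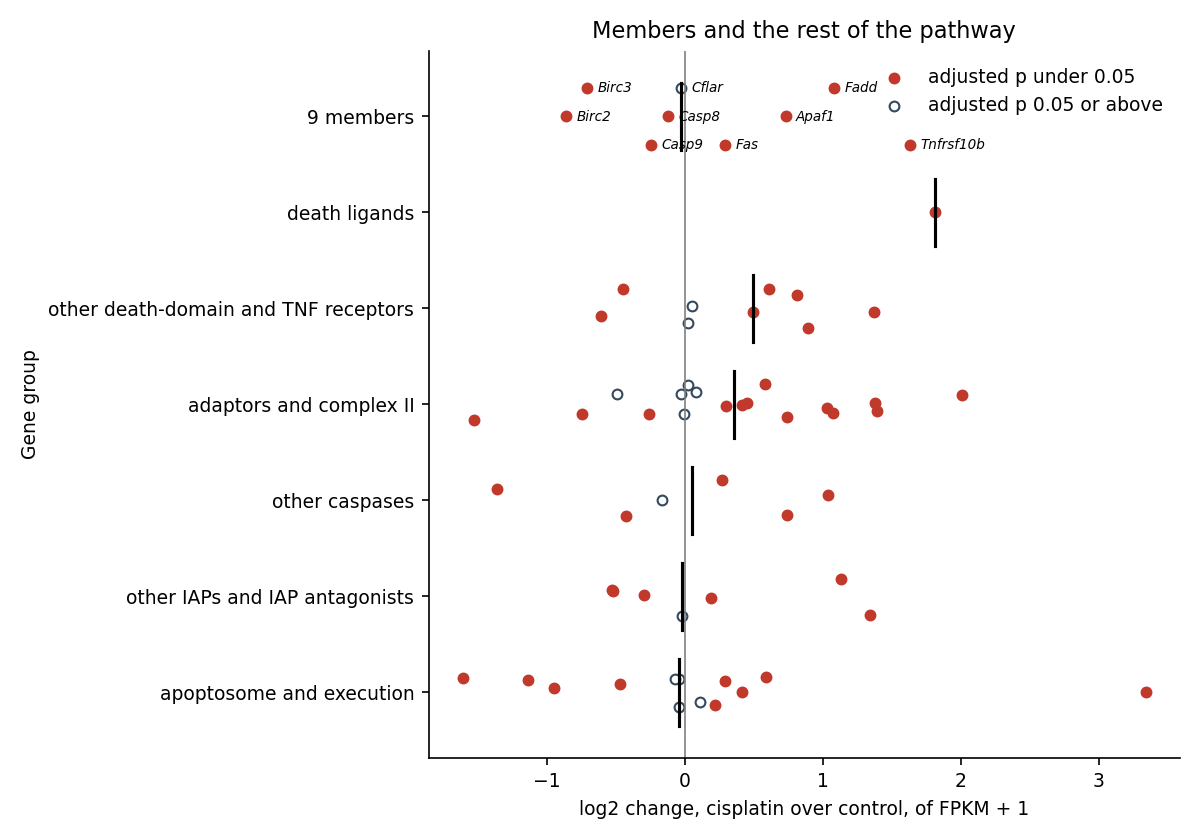
Limma log2 change of FPKM + 1 after cisplatin (horizontal axis) of each tested gene, in rows by gene group; filled points passed an adjusted p of 0.05, open points did not, vertical marks are group medians, and height within a row carries no value. The 9 genes spread from -0.86 (Birc2) to 1.63 (Tnfrsf10b).

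Adaptors and regulators of TNF receptor complexes rose in 10 of 18 tested cases and fell in 3, where 40.1% of all tested genes rose and 41.1% fell. Ripk3 among those that rose, and Cradd and Rnf31 among those that fell, had to differ to be tested. Tnfaip3 (A20), a ubiquitin-editing feedback inhibitor, had 14.9 ± 0.179 FPKM in cisplatin and 2.95 ± 0.228 FPKM in control libraries (limma log2 change 2.01, adjusted p = 1.54e-07). Map3k14, which encodes NIK, the kinase whose protein the cellular IAPs help to degrade, had 14.7 ± 0.780 FPKM in cisplatin and 5.02 ± 0.0347 FPKM in control libraries. Traf2, the adaptor that carries c-IAP1 and c-IAP2 to TNF receptors and was named here after its values were seen, had 18.2 ± 1.69 FPKM in cisplatin and 8.16 ± 0.510 FPKM in control libraries. Thus Traf2 and Map3k14 rose in the same libraries in which Birc2 and Birc3 fell. Cradd, the adaptor gene of caspase-2, went the other way, with 1 fragment over the cisplatin libraries and 610 fragments over the control libraries. Its partner gene Pidd1, named after its values were seen, rose to 4.72 ± 0.477 FPKM in cisplatin libraries, against 1.80 ± 0.260 FPKM in control libraries.

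Among 6 other tested caspase genes 3 rose and 2 fell, and Casp12 had to differ to be tested. The counts of this paragraph stand beside 40.1% of all tested genes that rose and 41.1% that fell. Casp2, an initiator caspase, rose to 4.12 ± 0.195 FPKM in cisplatin libraries, against 2.07 ± 0.0430 FPKM in control libraries (limma log2 change 0.74, adjusted p = 1.23e-05). Casp12, an endoplasmic reticulum caspase of rodents, fell to 0.858 ± 0.0416 FPKM in cisplatin libraries, against 3.76 ± 0.0388 FPKM in control libraries. Of 7 tested IAPs and IAP antagonists 3 rose and 3 fell. Xiap, a direct inhibitor of caspases, fell with Birc2 and Birc3, to 3.94 ± 0.371 FPKM in cisplatin libraries, against 6.08 ± 0.113 FPKM in control libraries (limma log2 change -0.52, adjusted p = 2.01e-04). Birc5 (survivin), an IAP family member with a role in mitosis, rose instead, with 18.2 ± 1.45 FPKM in cisplatin and 7.78 ± 0.259 FPKM in control libraries. Htra2, a mitochondrial protease that antagonises IAPs, had 9.23 ± 0.815 FPKM in cisplatin and 3.05 ± 0.181 FPKM in control libraries. In the list of apoptosome and execution genes 5 of 13 rose and 4 fell, among them Endog, Dffb and Xkr8, which had to differ to be tested. Cycs, the cytochrome c gene, named after its values were seen, rose 1.53-fold, to 34.1 ± 1.69 FPKM in cisplatin against 22.3 ± 0.998 FPKM in control libraries. Aven, an inhibitor of APAF1, fell to 2.73 ± 0.192 FPKM in cisplatin libraries, against 6.22 ± 0.137 FPKM in control libraries (limma log2 change -0.95, adjusted p = 4.05e-06).

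The genes with the most similar profile were found as the smallest Euclidean distance between centred log2(FPKM + 1) profiles over the 6 input libraries, outside the lists used here. Tnfrsf10b was nearest to Zbtb26 (distance 0.0587) and to the phosphatase gene Dusp1 (0.0920), and Fadd to Ppp1r10 (0.0563) and Timm9 (0.0645). Birc2 was nearest to Ddx50 (0.0440) and Exoc4 (0.0459), and Birc3 to Rap1a (0.0614) and Sept5 (0.0909). Apaf1 was nearest to Recql4 (0.0532) and Srm (0.0665), Fas to Prmt9 (0.0504) and F3 (0.0575), and Casp8 to Lox (0.0295) and Trap1 (0.0457). Cflar was nearest to Plcb3 (0.0231) and Tcf20 (0.0404), and Casp9 to Hist1h4i (0.0986) and Cipc (0.111). The profiles span 6 libraries in 2 treatments, so a shared treatment difference enters each distance. As the added 1 shrinks low values, near profiles need not share a fold change. Zbtb26 had 2.47 ± 0.0704 FPKM in cisplatin and 0.132 ± 0.0413 FPKM in control libraries, and Dusp1 had 43.7 ± 0.0639 and 13.6 ± 0.408 FPKM.

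The second readout was the authors' deposited table of ac4C peaks, which gives for each peak a fold enrichment of IP over input and a log2 difference between the treatments, with no value per library. Coordinates of peaks are on mm10. Its headers do not state which treatment is on top of the log2 difference, and the data did not settle it. Of 78 peaks in genes with at least 20 cisplatin fragments and no control fragments 68 had a positive difference, and so did 58 of 71 peaks in genes of the opposite kind. The signs below are therefore as deposited. Peaks were assigned to 7 of the 9 genes (77.8%), against 65.6% of all tested genes, and Fas and Fadd had none. Of the 14 peaks 10 lay in coding sequence and 4 in the 3' UTR by the authors' annotation, and 12 passed an adjusted p of 0.05 for enrichment. A difference between treatments passed the authors' adjusted p of 0.05 in 7 of 14 peaks, against 46.2% of all peaks, so the share is near the background. A positive difference passed in 5 and a negative one in 2, against 36.5% and 9.62% of all peaks.

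The Tnfrsf10b peak in the 3' UTR (chr14:69782704-69782944, 241 exonic bases) was enriched 10.6-fold, and the authors' deposited log2 difference was 6.26 with an adjusted p of 2.69e-07. Input RNA of this gene was low in control libraries, with 79 to 101 fragments each. Its coding-sequence peak did not pass for enrichment. Birc2 had the peak with the smallest adjusted p of the set, which spans 5 blocks and 479 exonic bases of coding sequence (chr9:7819476-7833523) and had a deposited log2 difference of 5.10 (adjusted p = 2.00e-73) at 7.71-fold enrichment. Birc3 had 1 peak (chr9:7854604-7855962), annotated to the 3' UTR, with a difference of 6.04 (adjusted p = 3.31e-07). This Birc2 peak and the Birc3 peak thus both had a positive difference, as had 75.8% of all peaks. The other Birc2 peak (3.32, authors' adjusted p = 0.356) did not pass.

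Cflar had 4 peaks, the most of the 9 genes, and their differences did not share a sign. The coding-sequence peak at chr1:58726571-58729073 had a deposited log2 difference of -2.64 (adjusted p = 3.39e-09), and that at chr1:58740283-58752437 one of 3.24 (adjusted p = 0.0257). A 3' UTR peak at chr1:58758195-58758435 was enriched 109-fold in the authors' table, above 99.9% of all peaks, with a difference of -0.77 that did not pass (adjusted p = 0.352). The Casp8 peak spans 4 coding blocks (chr1:58828894-58833697), with 2.79-fold enrichment and a difference of 3.58 (adjusted p = 2.51e-14). Casp9 had 1 peak (chr4:141796325-141796609), with a difference of -4.70 that passed at 0.05 (adjusted p = 0.0263) but not at 0.01. The 3 Apaf1 peaks, all in coding sequence, did not pass, with differences of 1.58, -1.58 and 2.57 and deposited adjusted p-values of 0.148 to 0.687. Casp8 and Cflar, whose input RNA differed least, each had a differential peak. So did Casp9, and Tnfrsf10b, Birc2 and Birc3, whose input RNA differed by more. Apaf1, which rose in input RNA, had none.

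**Figure D4:**
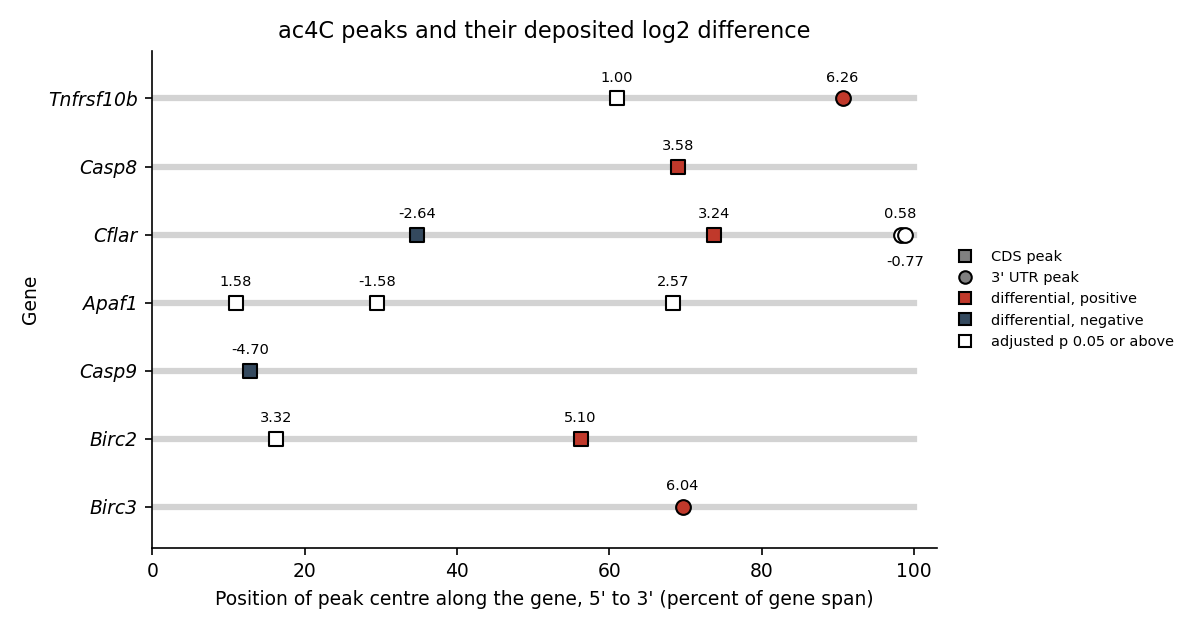
Centre of each ac4C peak along its gene (horizontal axis, percent of the RefSeq gene span, introns included) for the 7 genes with a peak; squares are coding-sequence and circles 3' UTR peaks, and numbers are the authors' deposited log2 differences, whose direction is not stated. Red (positive) and dark (negative) symbols passed an adjusted p of 0.05, white ones did not; Cflar holds differential peaks of both signs.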

How the data were processed

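Input and ac4C IP libraries were made from ID8 RNA depleted of ribosomal RNA, by a strand-specific protocol, per the labels' protocols. Per the submitters' processing notes, HISAT2, HOMER, fastp and FastQC were used with mm10, without stated roles; no source used here gives the counting, peak caller or tests. The FPKM values of 14852 genes, with a log2 fold change and p-values per gene, were deposited by the authors. The deposited peak table holds a fold enrichment ratio of IP over input, a log2 difference and log10 p scores per peak; log10 is set by the deposited p-value, and starts are given counting from 1.

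For the 11449 genes that reached 1 FPKM in at least 3 of 6 input libraries, cisplatin was compared with control on log2(FPKM + 1) by limma's lmFit and trended eBayes (limma 3.58.1, R 4.3.3), with Benjamini-Hochberg adjustment over all genes tested and a threshold of 0.05. Whole fragments were recovered from the FPKM steps, within 0.0001, for 14851 of 14852 genes (99.99% of values), and tested with limma's voom as an alternative; fragment totals are the smallest whole numbers that hold, and limits from them cover counting error only. Replicates of a group differed by more than sampling noise (chi-square per gene 2.35 to 14.63). Same-numbered libraries of both treatments did not deviate together (r of 0.10, -0.12 and 0.04), so replicate numbers were not used as pairs. The 9 genes and the pathway lists were chosen with earlier results of these data known. Named pathway genes were up to 3 per list with the smallest adjusted p, Xiap, and genes with at most 3 fragments in a treatment and at least 1 FPKM in every library of the other; other names were added after seeing values, and some genes the rule picks are not reported here. Peaks were all those of the 9 genes. The scripts were tested on simulated data. Tables, permutation tests and plots used Python 3.11.15 with matplotlib 3.10.9, scipy 1.17.1, pandas 2.3.3 and numpy 2.4.6. Promoter sequences are from RefSeq on GRCm38.p6.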

Additional observations from a re-analysis of the deposited data

How the results depend on the processing

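Over 13 alternatives, 6 of the 9 genes kept their call and direction wherever they were tested. These were Tnfrsf10b (log2 change 1.57 to 2.58), Fadd (1.00 to 1.43), Apaf1 (0.67 to 1.11), Fas (0.20 to 0.33), Birc2 (-0.95 to -0.81) and Birc3 (-0.99 to -0.60). With the pathway genes picked by the naming rule, 23 of 26 kept their call. Most of those pathway genes were picked for a small adjusted p in the main fit, so keeping it was favoured in advance. Tnfrsf10b entered most of the fits through its cisplatin libraries only, so its kept call was favoured in advance as well. Casp8 lost its call in 7 of 13 and Casp9 in 6 of 12, and Cflar gained one with a common FPKM sum; the cause was not tested. A filter at 5 FPKM tested 4 of the 9 genes and called 3, and called 5934 genes in all. Leaving out 1 library called 6 to 8 of the 9 genes, 8817 to 9398 of all genes tested and 41 to 43 of the pathway list genes. With the replicate number as a block, 7 of the 9 genes and 9276 of all genes were called; the Casp8 call was lost. Voom on the recovered fragments called 9437 genes and 7 of the 9. On log2(FPKM + 1) the log2 difference of Apaf1 over Casp9 was 0.98 (1.44 on plain ratios) and that of Tnfrsf10b over Fas 1.34 (2.26), as the added 1 shrinks low values. Birc3 over Birc2, at -0.02, changed sign to 0.15 on that scale, 0.09 without cisplatin replicate 2 and 0.01 without control replicate 3, and ranged from -0.14 to 0.09 over the libraries left out. At an adjusted p of 0.01, 5 of 14 peaks were differential (37.7% of all peaks).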

Other observations

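Some further genes of the pathway lists are given here as values. All of Endog, Dffb, Xkr8 and Ripk3 reached 1 FPKM in one treatment only, so they had to differ to be tested, and no test is given for them. Endog, which encodes a mitochondrial nuclease, had 9.10, 10.9 and 12.3 FPKM in cisplatin libraries and 0.167, 0.164 and 0.130 FPKM in control libraries. Dffb, the gene of the caspase-activated DNase and named here after its values were seen, lay the other way, with 0.258, 0.148 and 0.0789 FPKM in cisplatin libraries and 2.13, 2.60 and 2.92 FPKM in control libraries. Dffa, the gene of its inhibitor, did not pass limma (log2 change 0.11, adjusted p = 0.274). Xkr8, which encodes a scramblase that caspases cleave, had 0.710 ± 0.0730 FPKM in cisplatin libraries, against 2.78 ± 0.210 FPKM in control libraries (SD, n = 3 each).

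Ripk3, the necroptosis kinase gene and also named after its values were seen, had 2.03, 1.89 and 1.82 FPKM in cisplatin libraries and 0.155, 0.133 and 0.0403 FPKM in control libraries. Its substrate gene Mlkl had 20.4 ± 0.660 FPKM in cisplatin and 19.3 ± 0.536 FPKM in control libraries and did not pass limma (adjusted p = 0.106). Traf1 was too low to be tested, with 281 fragments over the cisplatin libraries and 0 over the control libraries.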
